A study of Mus musculus with 4 samples.

Results

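Chemokines and their receptors were read in mouse embryonic fibroblasts (MEFs) with and without PA1, through the 82 probe sets of 51 genes whose single platform symbol began with Ccl, Cxcl, Cx3cl, Ccr, Cxcr or Ackr and a digit, out of 45037 probe sets other than controls. The symbol rule uses no measured value. The cells were an immortalised MEF line with loxP sites on both PA1 alleles. Infection with a Cre retrovirus removed the floxed PA1 sequence and gave the knockout (PA1 -/-, 2 arrays), and the empty vector gave the wild type (PA1 +/+, 2 arrays). All cells grew in medium with 10% serum and went through rounds of puromycin selection (2.0 µg/ml for 3 days, then repeated). The wild-type cells therefore also carried the loxP alleles, the virus and the selection, but no Cre. The labels number the arrays of each genotype 1 and 2 without saying whether a number marks a culture or a day, so the spread behind each p-value is that of these 4 arrays and may be technical. The question is how expression changes once PA1 is lost. PA1 is read here as Pagr1a, whose protein works together with the enhancer methyltransferases KMT2C and KMT2D.

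Chemokines are small secreted proteins that direct cell migration. They are grouped by the spacing of their first cysteines into CC, CXC and CX3C ligands, and they act through G protein-coupled receptors named after the ligand class. Atypical receptors (Ackr) bind chemokines without coupling to G proteins in the usual way and often clear them. Fibroblasts are a known source of chemokines: Cxcl12 is made constitutively, while Ccl2, Ccl7 and Cxcl1 are induced by inflammatory signals through NF-κB and C/EBP factors, and Cxcl10 and Ccl5 also by interferons.

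The arrays carried MAS5 signals, a linear brightness per probe set, with array medians between 63.2 and 66.4, and their number limits the precision. Arrays stood apart by number more than by genotype: log2 signals correlated at 0.971 and 0.977 between genotypes at the same number, and at 0.918 and 0.920 between numbers of the same genotype. Each genotype difference was therefore read within number 1 and within number 2. Pagr1a read 1340 and 1389 in wild-type cells and 108 and 113 in knockout cells. All 11 fibroblast markers were above background, and of 10 leukocyte markers 5 were, with Ptprc, Cd3e, Itgam, Adgre1 and Lyz2 not above it. Of those 5 above it, 3 were lower and 2 higher in the knockout at both numbers, beside 28.6% and 33.6% of all genes above background. Of 5 endothelial markers 1 was above background, and of 5 epithelial markers 3 were. The summed signal of the leukocyte markers was 1104 and 2075 in wild-type and 1136 and 1114 in knockout cells. That of the fibroblast markers was 91808 and 109464 in wild-type and 79771 and 89103 in knockout cells. Of those 11 markers, 8 were lower in the knockout at both numbers, with a median difference of -0.47, beside 28.6% and a median of 0.03 for all genes above background. The part of these markers in the results below was not tested. Fewer cells of a type and less RNA per cell cannot be told apart in such samples.

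With no detection call used, background was set from 86 probe sets of olfactory, vomeronasal and taste receptor genes, which fibroblasts are not known to express. A probe set counted as above background when its mean log2 signal over all 4 arrays exceeded the 95th percentile of theirs, a signal near 36.0. This held for 30 of the 82 probe sets and 20 of the 51 genes, against 59% of all probe sets and 66.4% of all genes. A single array was read against its own threshold, which lay between 38.3 and 50.2. Of the 20 genes, 13 were above it on all 4 arrays. The 15 G protein-coupling receptors among the 51 genes were all not above background, with signals between 0.797 and 49.8. Cxcr4, the signalling receptor for Cxcl12, read 0.797 to 2.11 over the 4 arrays by its brightest probe set. Ccr1 and Cxcr3 exceeded the threshold on 1 array each. The 20 genes above background were 6 CXC ligands, 9 CC ligands, the CX3C ligand Cx3cl1 and all 4 atypical receptors.

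**Figure D1:**
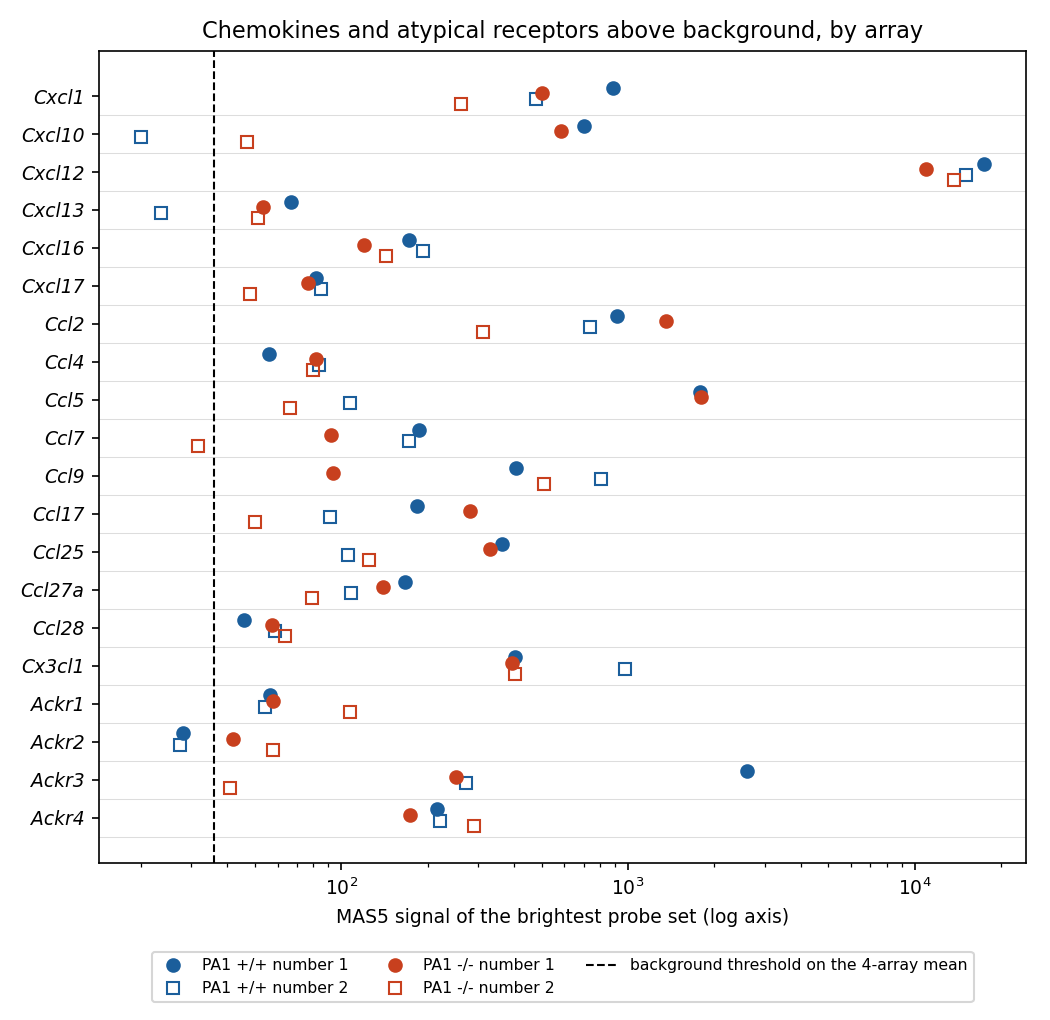
Signal on each of the 4 arrays (horizontal log axis, MAS5 signal of a gene's brightest probe set) for the 20 genes above background, with circles for arrays numbered 1, squares for those numbered 2, blue for PA1 +/+ and orange for PA1 -/-. The dashed line is the background threshold on the 4-array mean, near 36.0. Ackr3 and Ccl7 had lower knockout than wild-type signals, and Ccl5 and Cxcl10 separated by number instead.

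Differences are given as knockout minus wild type on the log2(signal + 9.96) scale, which understates those of dim genes, and a gene was read through its brightest probe set. Where an array was below its threshold, the difference was taken at the measured value, and its exact size is not known. Ackr3 was the 1 gene of the 20 that was at least 2-fold lower in the knockout at both numbers, against 0.894% of the 12075 genes above background. At least 2-fold higher at both numbers were 0 of the 20, against 0.248%. Lower at both numbers by any amount were 9 of the 20 (Ackr3, Ccl7, Ccl9, Cxcl1, Cxcl12, Cxcl16, Cxcl17, Ccl27a and Cx3cl1), against 28.6%. Higher at both were 3 (Ackr1, Ackr2 and Ccl28), against 33.6%, and 8 went opposite ways at the numbers, against 37.9%. Taken 1 number at a time, at least 2-fold lower were Ackr3 and Ccl9 at number 1, against 2.95%, and Ackr3, Ccl2, Ccl7 and Cx3cl1 at number 2, against 2.47%. At least 2-fold higher were 0 at number 1, against 1.86%, and 0 at number 2, against 1.45%. Over all 51 genes with no filter, 19 were lower at both (27.4% of all genes) and 11 higher at both (31.1%). In that wider count 1 was at least 2-fold lower at both (0.945%) and 0 were 2-fold higher (0.517%). The median difference of the 20 was -0.32, beside 0.03 for all genes above background. Within number 1 the median was -0.18, beside 0.04, and within number 2 it was -0.40, beside 0.003. The median over both numbers moved to 0.053 when the second knockout array was dropped and to -0.043 when the first wild-type array was. Dropping an array leaves unequal numbers in the genotypes, so these 2 values also take in the difference between numbers.

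With genotype as the only term, no chemokine or receptor passed limma at an adjusted p under 0.05, and neither did any other probe set (0% of 22519 tested). Even Pagr1a, the targeted gene, did not pass (limma unadjusted p = 4.55e-05, adjusted p = 0.876), though it did with a term for the number. A gene that did not pass this fit is therefore not shown to be unchanged. Of the 24 chemokine and receptor probe sets tested, 2 had an unadjusted p under 0.05, 1 each of Ccl7 and Cxcl12, against 440 of all probe sets (1.95%), and their smallest adjusted p was 0.9998. The fit with genotype only counts the difference between numbers as spread. Each SE given below is from that fit, as is each p-value not named as from the block, although the differences beside them are read within number. The smallest p that an exact permutation of these arrays allows is 0.333. With a term for the number, 6 of the 24 probe sets passed, all lower in the knockout, against 1.46% of all probe sets in that direction, 0.524% in the other and 1.98% in either; they are named with the dependence on processing.

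**Figure D2:**
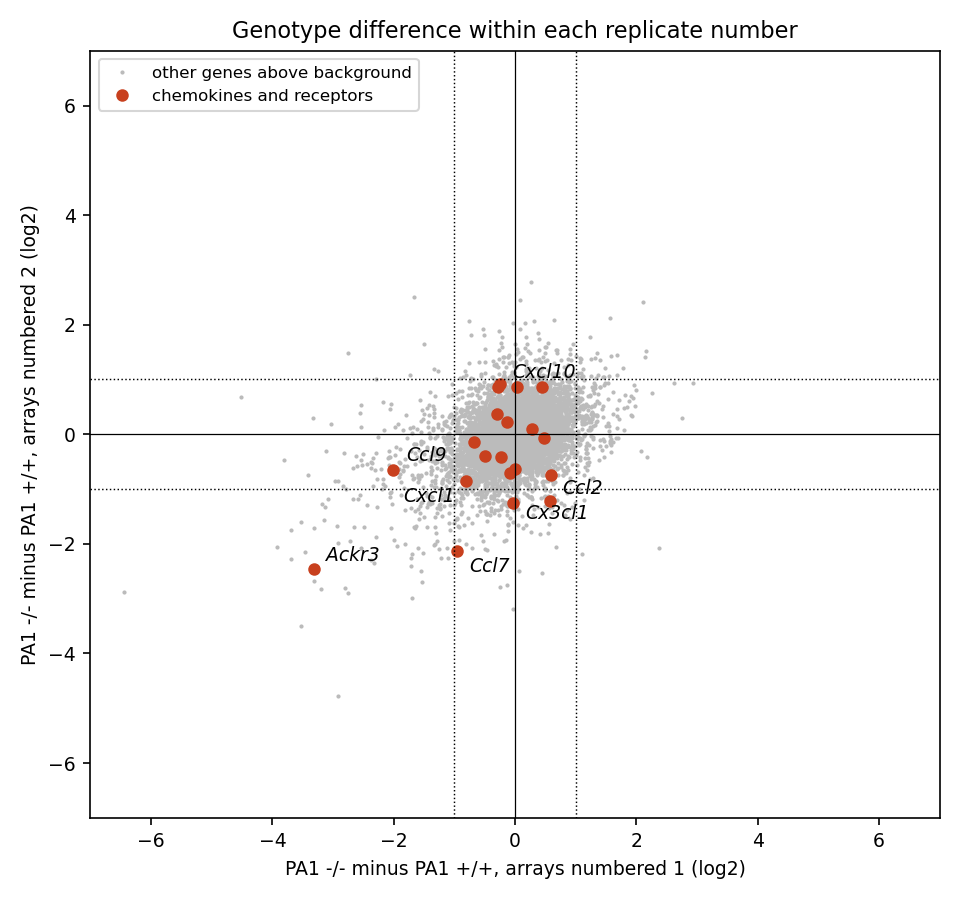
Knockout minus wild type (log2) between the arrays numbered 1 (horizontal) and between those numbered 2 (vertical) for the 20 chemokine and receptor genes (orange) and the other genes above background (grey). Dotted lines mark 2-fold. Ackr3 lies past both lines on the lower side, at -3.32 and -2.47, and Ccl7 just misses the line at number 1.

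Among the CXC ligands, Cxcl1, the neutrophil attractant also called KC, was lower in the knockout by each of its 3 probe sets at both numbers. The brightest read 887 and 479 in wild-type cells (arrays 1 and 2) and 500 and 261 in knockout cells. The second read 834 and 398 against 337 and 188, and the third 818 and 399 against 309 and 70.2. The signal was also lower at number 2 in both genotypes, and the knockout array numbered 1 overlapped the wild-type array numbered 2 by the brightest probe set, while the other sets did not overlap. Their mean differences were -0.83 (SE 0.476), -1.16 (SE 0.495) and -1.86 (SE 0.768), none past the threshold. With the mean of the 3 probe sets in place of the brightest, Cxcl1 was also at least 2-fold lower at both numbers. The identifiers of the first and second sets carry the x and s suffixes by which the manufacturer marks sets that can match several transcripts, and the third set, without such a suffix, gave the largest difference. Of the genes of the symbol rule beside Cxcl1 in the same cluster, Cxcl2, Cxcl3, Cxcl5 and Cxcl15 were not above background. Pf4 and Ppbp, CXC ligands that the rule leaves out, were above it by their mean, and on 2 and 1 single arrays. Cxcl5 read 137 and 59.7 in the wild-type and knockout arrays numbered 1 and 3.02 and 0.880 in those numbered 2.

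The promoter of Cxcl1 is shown because NF-κB sites there are a known control of this gene, and that of Cxcl10 because interferon elements are. Letters are those before the RefSeq start in GRCm38.p6 (Cxcl1 at chr5:90890995-90891244, plus strand, Cxcl10 at chr5:92348890-92349139, minus strand). Capitals mark matches, on either strand, to 4 motifs: NF-κB (GGG, any 2 bases, TTTCC), C/EBP (TTGCNNAA), AP-1 (TGANTCA) and the interferon element (GAAA, any 2 bases, GAAA). In the 250 bases before the start, they occur in 1.41%, 9.56%, 6.75% and 2.98% of 32851 promoters.
Cxcl1: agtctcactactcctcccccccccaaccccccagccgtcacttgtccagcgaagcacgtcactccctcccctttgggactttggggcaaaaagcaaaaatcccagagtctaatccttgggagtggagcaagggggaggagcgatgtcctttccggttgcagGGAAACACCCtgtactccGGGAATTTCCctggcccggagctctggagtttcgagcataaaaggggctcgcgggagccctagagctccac
Cxcl10: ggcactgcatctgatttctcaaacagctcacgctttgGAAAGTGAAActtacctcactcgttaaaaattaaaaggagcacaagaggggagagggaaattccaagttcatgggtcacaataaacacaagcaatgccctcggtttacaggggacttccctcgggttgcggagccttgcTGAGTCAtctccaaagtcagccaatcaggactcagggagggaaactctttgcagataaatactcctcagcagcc
Cxcl1 held 2 NF-κB matches, starting 89 and 71 bases before its start. Cxcl10 held an interferon element match at 213 bases and an AP-1 match at 74 bases, and no match overlapped another. Of the 20 genes, 14 had a promoter entry, and Ccl2, Ccl4, Ccl5, Ccl7, Cxcl16 and Cxcl17 had none. Of those 14, 8 held none of the motifs. Their 17 promoters, of which some of the same gene overlap, held an NF-κB match in 2, a C/EBP match in 4, an AP-1 match in 3 and an interferon element match in 1. A match is a description of letters, not a measured binding site. Only these spellings were searched, so a promoter without a match can still hold a variant of the site. In Cxcl10, for example, the stretches gggaaattcc and ggggacttcc come near the NF-κB motif but were not counted.

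Cxcl12, which retains stem cells and guides Cxcr4-bearing cells, stayed far above background in every array. It read 17441 and 15062 in wild-type and 10937 and 13749 in knockout cells by its brightest probe set, and 14498 and 12109 against 10006 and 9371 by the second. Neither probe set overlapped between genotypes. The differences were -0.67 at number 1 and -0.13 at number 2 by the first, and -0.53 and -0.37 by the second, whose mean of -0.45 (SE 0.158) did not pass. Its other probe set was not above background.

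Cxcl16, a membrane-bound ligand and scavenger receptor, read 172 and 192 in wild-type and 120 and 143 in knockout cells, without overlap (-0.44, SE 0.288). Its second probe set read 87.8 and 23.8 against 92.9 and 22.9, with a mean difference of 0.02, so the probe sets disagreed. Cxcl17, a mucosal chemokine-like factor, read 81.8 and 85.2 against 76.8 and 48.0 (-0.40, SE 0.359), with the knockout array numbered 2 below its threshold.

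Cxcl10, the interferon-inducible ligand of Cxcr3, followed the number rather than the genotype. It read 700 in the wild-type and 586 in the knockout array numbered 1, and 20.04 and 46.8 in those numbered 2, where neither array was above its threshold. The B cell attractant Cxcl13 read 66.9 and 23.6 in wild-type and 53.6 and 51.4 in knockout cells. Its genotype difference went opposite ways, at -0.28 and 0.87, the latter against a wild-type value below its array's threshold of 38.3. Of the CXC ligands not above background by their mean, Cxcl9, Cxcl11, Cxcl14 and Cxcl15 exceeded the threshold on 1 array each and Cxcl5 on the 2 arrays numbered 1, while Cxcl2 and Cxcl3 did so on 0.

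Among the CC ligands, Ccl7 (MCP-3), which attracts monocytes, read 187 and 172 in wild-type and 91.9 and 31.6 in knockout cells. The wild-type arrays lay close together and above both knockout arrays, of which the one numbered 2 was below its threshold of 50.2. The differences at the measured values were -0.95 and -2.13, the latter against a value not above background, with a mean of -1.54 (SE 0.511; limma unadjusted p = 0.0312, adjusted p = 0.9998). With a pseudocount of 1, Ccl7 was at least 2-fold lower at both numbers.

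Ccl2 (MCP-1), the gene next to Ccl7 in the RefSeq order, did not show the same pattern. It read 912 and 735 in wild-type and 1357 and 312 in knockout cells. The knockout array was the higher one at number 1 (0.57) and the lower one at number 2 (-1.21), so the knockout values spanned those of the wild type. The other genes of that cluster, Ccl11, Ccl12, Ccl8 and Ccl1, were not above background.

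Ccl9 (MIP-1γ), a myeloid attractant, read 406 and 802 in wild-type and 93.6 and 510 in knockout cells. It was lower in the knockout at both numbers, by -2.01 and -0.64, but higher at number 2 in both genotypes, so that the genotypes overlapped (mean -1.32, SE 0.854). Its second probe set read 166 and 415 against 35.7 and 255, with differences of -1.94 and -0.68, the former against a knockout value below its array's threshold of 44.0. Ccl6, its neighbour, was not above background. The Ccl9 promoter (chr11:83578637-83578886, minus strand) and that of Cxcl12 (chr6:117168285-117168534, plus strand) are shown because both genes were lower at both numbers by both probe sets above background.
Ccl9: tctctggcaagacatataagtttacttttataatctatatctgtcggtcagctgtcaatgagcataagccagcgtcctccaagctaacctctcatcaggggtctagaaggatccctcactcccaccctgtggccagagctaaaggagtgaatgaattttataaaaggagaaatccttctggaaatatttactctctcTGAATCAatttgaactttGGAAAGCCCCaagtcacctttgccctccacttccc
Cxcl12: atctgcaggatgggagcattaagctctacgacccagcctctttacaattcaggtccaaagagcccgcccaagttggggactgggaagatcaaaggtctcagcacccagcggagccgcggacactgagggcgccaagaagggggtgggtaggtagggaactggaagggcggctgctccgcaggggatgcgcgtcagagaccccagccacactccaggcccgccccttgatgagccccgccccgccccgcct
Ccl9 held an AP-1 match starting 53 bases and an NF-κB match 35 bases before the start, and Cxcl12 held none of the 4 motifs.

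Ccl5 (RANTES), which attracts T cells and monocytes, had the same levels in both genotypes at number 1 and was far lower at number 2. It read 1789 and 1795 in the wild-type and knockout arrays numbered 1, and 107 and 66.0 in those numbered 2. The genotype differences were 0.00 and -0.62, beside a difference of -4.26 between number 2 and number 1. Ccl17, a ligand of Ccr4, read 184 and 91.1 against 281 and 50.02, and its genotype difference was 0.59 at number 1 and -0.75 at number 2. The knockout value at number 2 was just below its array's threshold of 50.2.

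The remaining CC ligands above background were Ccl25, Ccl27a, Ccl4 and Ccl28. Ccl25, the thymic and gut ligand of Ccr9, read 362 and 106 in wild-type and 331 and 125 in knockout cells, lower at number 2 in both. Ccl27a, a skin ligand of Ccr10, read 167 and 108 against 140 and 79.0 (-0.32, SE 0.418), and its probe set carries the x suffix. Ccl4 read 56.2 and 84.0 against 81.7 and 79.6, and Ccl28, a mucosal ligand, 45.6 and 58.9 against 57.2 and 63.8. Ccl28 was the 1 CC ligand higher in the knockout at both numbers, by 0.27 and 0.10. Its second probe set read 23.3 and 33.3 against 35.6 and 69.9 (0.45 and 0.88), where only the knockout array numbered 2 exceeded its threshold.

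Cx3cl1 (fractalkine), a membrane-anchored ligand, stood higher in the wild-type array numbered 2 than in the other 3 arrays. It read 404 and 978 in wild-type and 394 and 405 in knockout cells, with differences of -0.04 and -1.25 (mean -0.64, SE 0.474). The second probe set gave 0.38 and -0.74, and the third, a dim one, gave -1.03 and -1.60, with neither knockout array above its threshold (at least 1.32-fold lower). The probe sets thus differed in sign at number 1 and were all lower at number 2. This bound sets the mean of the brighter genotype against, per array, the higher of the threshold and the measured value.

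**Figure D3:**
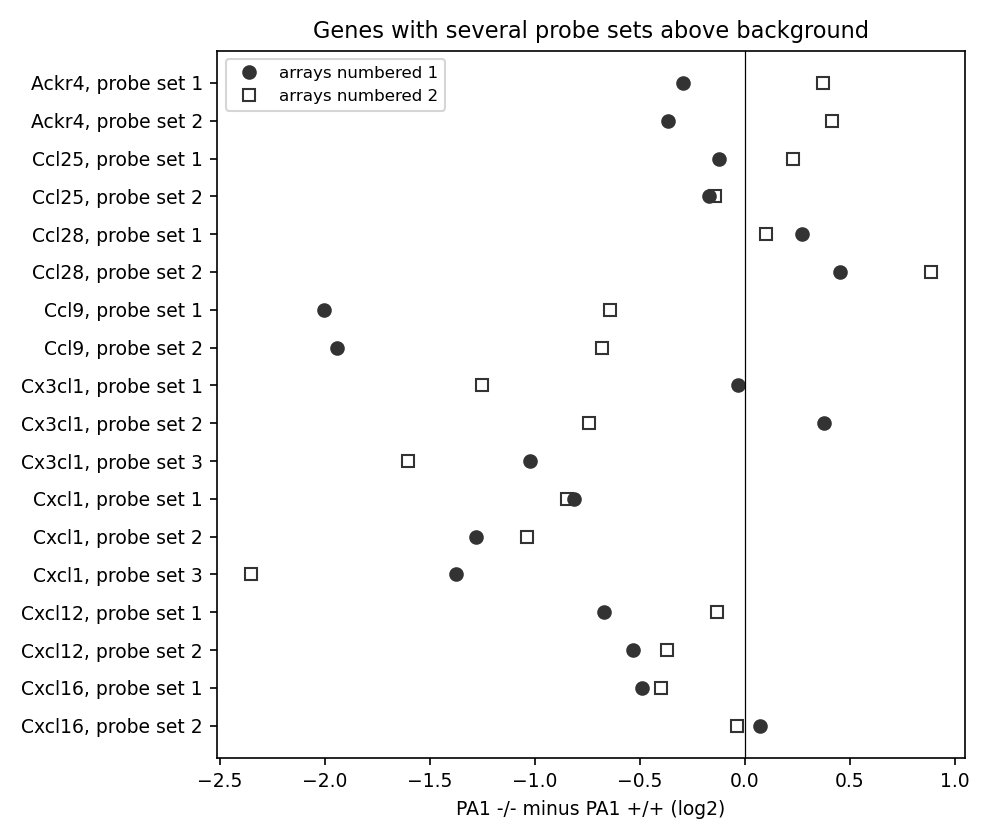
Knockout minus wild type (log2, horizontal) for each probe set above background of the genes with several such probe sets, numbered from the brightest, with filled circles for arrays numbered 1 and open squares for those numbered 2. All 3 probe sets of Cxcl1 and both of Ccl9 and Cxcl12 lie below 0 at both numbers, while those of Ackr4 fall on opposite sides of 0.

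Of the atypical receptors, Ackr3, a scavenger of Cxcl12 once named CXCR7, differed most. It read 2609 and 272 in wild-type cells and 252 and 41.1 in knockout cells. Within each number the knockout array was far lower, and the genotypes did not overlap, though only narrowly: the knockout array numbered 1, at 252, lay just below the wild-type array numbered 2, at 272. The knockout array numbered 2 was below its threshold. The differences were -3.32 and -2.47, with a mean of -2.89 (SE 1.32; limma unadjusted p = 0.0822, adjusted p = 0.9998), and number 2 minus number 1 came to -2.79. Left out 1 at a time, the arrays moved the mean difference between -4.50 and -1.29, the latter without the wild-type array numbered 1. Those values also take in the difference between numbers. Ackr3 has 1 probe set here, with the s suffix, so no second one could be set beside it.

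The promoter of Ackr3 (chr1:90203730-90203979, plus strand) is shown as that of the 1 gene at least 2-fold lower at both numbers.
Ackr3: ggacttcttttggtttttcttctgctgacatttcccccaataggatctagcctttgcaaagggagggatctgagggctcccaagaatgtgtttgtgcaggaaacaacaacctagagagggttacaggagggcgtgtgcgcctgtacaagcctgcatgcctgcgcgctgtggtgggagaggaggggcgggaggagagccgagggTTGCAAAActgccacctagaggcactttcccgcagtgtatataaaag
It held a C/EBP match starting 47 bases before the start and none of the other motifs.

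The other atypical receptors did not share this pattern. Ackr4, a scavenger of Ccl19, Ccl21 and Ccl25, read 216 and 222 in wild-type and 174 and 289 in knockout cells, lower in the knockout at number 1 (-0.30) and higher at number 2 (0.37). A second probe set gave -0.37 and 0.41. Ackr1, the Duffy antigen receptor, read 56.6 and 54.3 against 57.9 and 107, higher at both numbers (0.03 and 0.87). Ackr2, known as D6, read 28.0 and 27.4 against 41.8 and 58.0, higher at both numbers at the measured values. Only the knockout array numbered 2 exceeded its threshold, so the size of its difference is not known. By probe set, Ackr2, the third set of Cx3cl1 and the second of Ccl28 were nearest to the background boundary on the upper side. Ccl8, Cxcr3 and Ccr1 were nearest on the lower side.

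Genotypes did not overlap for 7 of the 20 genes. Knockout arrays were below wild-type arrays for Ackr3, Ccl7, Cxcl12, Cxcl16 and Cxcl17, which is 25% of the 20 against 11.3% of all genes above background. They were above for Ackr1 and Ackr2, which is 10% against 15.4%. The difference between numbers was the larger one for 13 of the 20 genes (65%), against 66.5% of all genes above background. A difference of at least 4-fold between numbers, in the same direction in both genotypes, was seen for 3 of the 20 (Ackr3, Ccl5 and Cxcl10), against 2.62%, a size chosen after the values were seen. All 3 were higher at number 1.

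**Figure D4:**
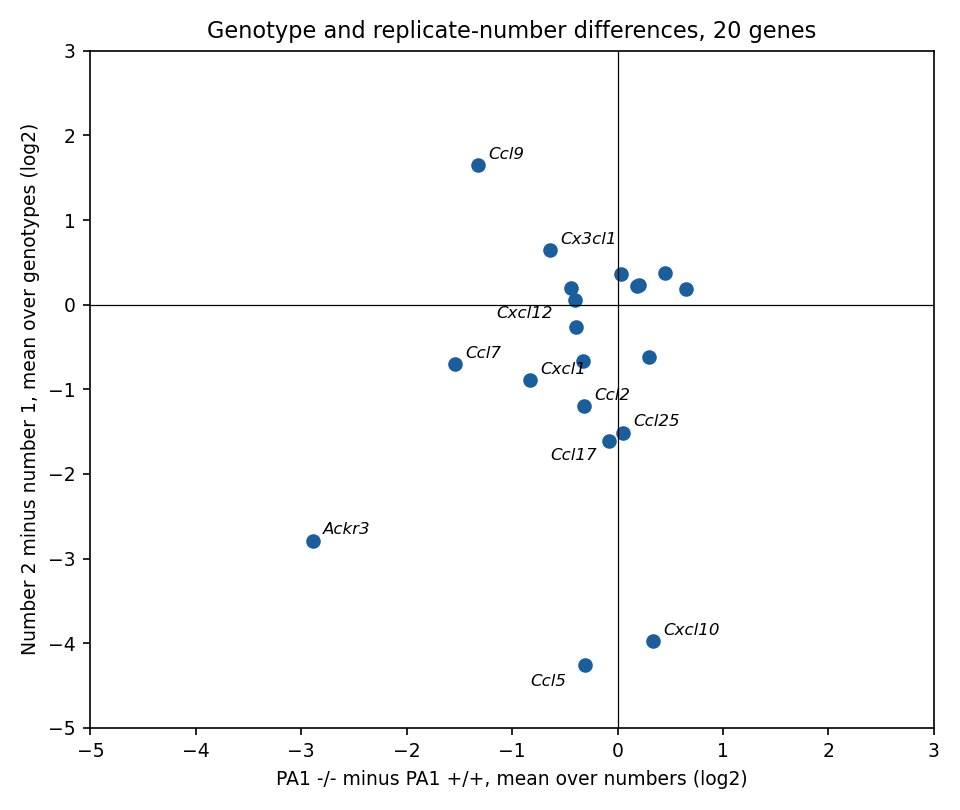
For the 20 genes above background, the genotype difference averaged over numbers (horizontal, log2) against the difference of number 2 minus number 1 averaged over genotypes (vertical, log2). Ccl5 and Cxcl10 lie near 0 for genotype and at -4.26 and -3.98 for number, while Ackr3 lies at -2.89 and -2.79.

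Of 28 genes above background that transduce chemokine signals, 6 were lower and 8 higher in the knockout at both numbers, beside 28.6% and 33.6% of all genes above background. Their median was 0.03, and 0 of 24 tested passed. Plcb4, a phospholipase of Gq signalling, read 1189 and 1282 in wild-type and 472 and 978 in knockout cells, and Plcb1 231 and 276 against 124 and 181. Rgs5 and Rgs4 speed up the switching-off of G proteins. Rgs5 read 339 and 32.6 against 140 and 22.2, and Rgs4 140 and 34.5 against 61.3 and 20.5. Both were lower in the knockout at number 1 (-1.22 and -1.08), while at number 2 neither genotype was above its threshold. All 3 inhibitory Gα genes, both arrestin genes, Rac1 and Rhoa were above background by their mean. Gnai1 read 216 and 18.3 in wild-type and 540 and 16.7 in knockout cells, above its threshold only on the arrays numbered 1. Of genes known from leukocytes, Dock2, Pik3cg, Plcb2 and Rgs1 were not above background. Vav1, Rac2 and Pik3r5 were above it by their mean, and on 3, 2 and 4 single arrays.

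Of 22 transcription factors and inhibitors that control chemokine genes, all above background and tested, 11 were lower and 1 higher at both numbers, beside 28.6% and 33.6% of all genes above background. Their median was -0.24, beside 0.03, and 0 passed. The list was chosen with earlier results of these data known, so these shares only describe its members. Cebpd differed by -2.92 and -1.98 within the numbers, Cebpb by -2.44 and -1.29, Bcl3 by -1.69 and -2.18, and Fos by -1.12 and -2.08. These were the 4 members at least 2-fold lower at both, beside 0.894% of all genes above background. With the replicate number as a block, the same 4 passed limma (adjusted p = 0.000223 for Cebpd, 0.00164 for Bcl3, 0.00177 for Cebpb and 0.00597 for Fos). Of all probe sets tested, 1.46% passed lower in that fit. The 1 higher at both was Rela, the p65 subunit of NF-κB (0.66 and 0.06). Nfkbia, which encodes an inhibitor of NF-κB, differed by 0.26 and -0.81, and Tnfaip3 by 0.08 and -0.17. Irf1 differed by -0.48 and -0.55.

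Of the cytokines that induce chemokines, with their receptors and adaptors, 8 were lower and 10 higher at both numbers of 24 above background, beside 28.6% and 33.6% of all genes. Their median was 0.02, and 0 of 22 tested passed. Il6 read 152 and 97.9 in wild-type and 21.3 and 11.98 in knockout cells, where neither array was above its threshold (at least 2.32-fold lower). Il6ra read 66.4 and 85.7 against 57.3 and 14.8, the last below its threshold. Il1r1, the signalling receptor of interleukin-1, was higher in the knockout, at 102 and 63.6 against 177 and 129, and Tlr2 read 217 and 50.2 against 663 and 45.1, the last below its threshold. The cytokine genes Il1a, Tnf, Ifng and Il17a were not above background.

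Heparan sulfate proteoglycans, which hold chemokines at the cell surface, were above background for 8 of 9 genes, 2 of them lower and 3 higher at both numbers, beside 28.6% and 33.6% of all genes above background. Sdc3 read 368 and 1117 in wild-type and 1493 and 1975 in knockout cells (1.40), Gpc4 2877 and 2225 against 4441 and 3352 (0.61), and Sdc1 2831 and 4699 against 2878 and 2554. Sdc3, Gpc4 and Gpc6 (305 and 399 against 415 and 426) were higher in both knockout arrays than in either wild-type array. Of all genes above background, 15.4% were. With the block, Sdc3 passed (limma adjusted p = 0.0146) as 1 of 8 tested, against 0.524% of all probe sets that passed in that direction. Of the proteases that cleave chemokines, Mmp2 read 5701 and 7839 against 3039 and 7401, with a difference of -0.91 at number 1 and -0.08 at number 2. Dpp4, which trims Cxcl12, Mmp9 and Anpep were not above background.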

How the data were processed

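RNA from 4 samples, 2 wild type and 2 knockout, carried a biotin label, per the labels, and each sample has 1 Affymetrix array. The deposited intensity values are linear MAS5 signals, per the submitters' processing notes, and the authors' settings were not stated. Without its 2% brightest and 2% dimmest probe sets each array averages 500, so each difference is relative to its array.

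After 64 controls were left out, 34945 of 45037 probe sets had 1 gene symbol, 932 several and 9160 none. Sets with several symbols gave no gene name, and 4 chemokine sets were left out for that reason. All 51 gene identifiers matched the RefSeq table of GRCm38.p6, used for names, neighbours and promoter letters. Group differences were tested with limma 3.58.1 in R 4.3.3 (lmFit, eBayes with an intensity trend) on the log2 scale after adding 9.96, the 20th signal percentile, over the upper 50% of probe sets by mean, with Benjamini-Hochberg adjustment over all 22519 and 2 residual degrees of freedom. The test was tried on simulated data. Figures used matplotlib 3.10.9.

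Every gene of the symbol rule may be named, with each array's value where above background; from each pathway list up to 4 members with the largest differences were named, and a few others were chosen after their values were seen. The members and lists were chosen with earlier results of these data known. Alternatives were other normalizations, pseudocounts, filters, variance models, background thresholds and probe set means, dropping single arrays, and a block for the replicate number.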

Additional observations from a re-analysis of the deposited data

How the results depend on the processing

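With the replicate number as a block, 447 of 22519 probe sets passed (limma adjusted p under 0.05; 329 lower and 118 higher in the knockout, 1.98% in all), and 6 of the 24 chemokine and receptor probe sets did, all lower. These were Ackr3 (adjusted p = 0.000172), both probe sets of Ccl9 (0.0361 and 0.0437), 2 of 3 of Cxcl1 (0.00289 and 0.0123) and Ccl7 (0.0272). Of the lists, 4 transcription factors and 3 fibroblast markers passed lower (Postn, Dcn and Pdgfra) and 1 proteoglycan higher. The labels give no basis for the pairing beyond the shared number, and same-numbered arrays deviated together (correlation of deviations 0.805). Under all other alternatives the count stayed at 0. Genes at least 2-fold lower at both numbers came to 2 with a pseudocount of 1 (Ackr3 and Ccl7) and to 2 with all probe sets of a gene averaged (Ackr3 and Cxcl1), and to 1 otherwise. The median difference was -0.083 with background at the 90th percentile, and without 1 array it ran from -0.62 to 0.053. A fit without 1 array holds unequal numbers in the genotypes, so the difference between numbers enters its value. It is therefore no test of the difference within a number.

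Signs of small differences also turned without 1 array: Ackr4 ran from -0.31 to 0.39, Ccl17 from -1.22 to 1.06, Ccl2 from -1.36 to 0.72, Ccl25 from -0.79 to 0.90, Ccl27a from -0.70 to 0.054, Ccl4 from -0.052 to 0.45, Ccl5 from -2.60 to 1.97 and Cxcl10 from -1.95 to 2.62. Ackr4 was -0.11 and Ccl25 -0.054 with the mean of probe sets, and Ccl17 was 0.017 with a pseudocount at the median. Ackr3, Ccl7, Ccl9, Cxcl1, Cxcl12, Cxcl16, Cxcl17 and Cx3cl1 stayed below 0 under every alternative run, Cx3cl1 only at -0.016 without the wild-type array numbered 2. No run read another probe set alone. The second set of Cxcl16 gave 0.02 and that of Cx3cl1 0.38 at number 1, while those of Cxcl1, Ccl9 and Cxcl12 were below 0 at both numbers. Signal near background limits Ackr2, Ccl28, Cxcl13 and the number 2 values of Cxcl10. It also limits the number 2 knockout values of Ackr3, Ccl7, Ccl17 and Cxcl17, each below the array's threshold.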

Other observations

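Probe sets assigned to several symbols were kept out of the comparisons. One shared by Ccl27a, Ccl27b and related genes read 395 and 284 in wild-type and 295 and 217 in knockout cells, with differences of -0.41 and -0.37, beside -0.24 and -0.41 for the Ccl27a probe set. Another of the same genes read 202 and 114 against 145 and 138, lower at number 1 and higher at number 2. Those shared by the Ccl21 genes (2.74 to 3.59) and by Ccl19 and its copies (7.67 to 9.54) were not above background on any array.

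Of chemokine family genes that fall outside the symbol rule, Mif, a cytokine that binds Cxcr2 and Cxcr4, read 15077 and 18417 in wild-type and 15218 and 15568 in knockout cells. Cklf read 2433 and 2226 against 2589 and 1432. The platelet chemokine Pf4 was the 1 of 5 above background that was lower at both numbers, at 56.0 and 50.02 against 36.6 and 22.03, with neither knockout array above its threshold (at least 1.10-fold lower). The receptor genes Cx3cr1 and Xcr1, and Xcl1, were not above background.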
